A study of Canis lupus familiaris with 8 samples.

Results

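The comparison set 4 libraries of the Chinese Field Dog, a dog native to China, against 4 libraries of the Beagle, which together are all 8 libraries of the series. Each library was RNA-seq of an adult gland: adrenal cortex or pituitary, from a dog under chronic stress exposure or from a control whose label reads "non-disposal", here called unexposed. The groups were stressed Chinese Field Dog adrenal cortex, unexposed Chinese Field Dog adrenal cortex, stressed Chinese Field Dog pituitary, unexposed Chinese Field Dog pituitary, and the same 4 combinations in Beagle, with 1 library each. Neither the number of dogs behind each library nor a link between glands of the same dog is stated, and the p-values below measure only the spread between the 4 pairs, which may be technical. The extraction note speaks of spleen, although every library is labelled pituitary or adrenal cortex.

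The libraries were paired by gland and exposure, 1 Chinese Field Dog library over 1 Beagle library, and the question was which genes differed between the breeds the same way in all 4 pairs, whatever the gland or the exposure. Of 24580 genes in the tables, 13552 were tested, those with a mean of at least 50 reads over the 4 libraries of at least 1 breed. The 26 genes at least 2-fold different the same way in all 4 pairs are described in most depth. Levels are FPKM, read levels scaled by the authors to transcript length and library size, and every ratio is the log2 of Chinese Field Dog (FPKM + 1) over Beagle (FPKM + 1), which understates the change of low genes. In lists of 4 values, the order is unexposed adrenal cortex, stressed adrenal cortex, unexposed pituitary and stressed pituitary.

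Both glands serve the stress axis: the pituitary releases the hormones that drive the adrenal cortex, which makes steroid hormones. Both also hold resident macrophages, which sit along the capillaries and engulf particles, and small numbers of lymphocytes. Class I proteins of the major histocompatibility complex, called DLA in the dog, carry peptides to the surface of nearly every cell, where cytotoxic lymphocytes read them. DLA genes are among the most polymorphic of the dog genome, and breeds differ in the alleles they carry.

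Depth was 15125534 to 18712031 reads in the Chinese Field Dog libraries and 14327357 to 18109620 in the Beagle libraries, recovered from the authors' scaled counts. The tissue labels fitted their markers. POMC, the precursor of the corticotropic hormone, had 5.95, 5.53, 30314 and 10147 FPKM in Chinese Field Dogs and 3.003, 6.29, 23764 and 26578 FPKM in Beagles. CYP11A1, which starts steroid synthesis, had 1574, 2202, 3.21 and 3.32 FPKM in Chinese Field Dogs and 1912, 1968, 0.903 and 1.18 FPKM in Beagles. The adrenal cortex libraries of both breeds also carried genes of the adrenal medulla. The stressed Chinese Field Dog pituitary stood apart: the 20 forebrain neuron markers summed to 1987 FPKM there, against 72.2 to 143 FPKM in the other 3 Chinese Field Dog libraries and 101 to 214 FPKM in the Beagle libraries. The standard deviation of the log2 ratios over all genes was 0.746 in the stressed pituitary pair and 0.367 to 0.393 in the other 3 pairs, and results are therefore also given without that pair.

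Breed differences that held over both glands of at least 2-fold were, with 1 exception, genes higher in the Chinese Field Dog. Of the 10 with a symbol, 5 were members of the lists described below: MARCO and CD5L of the tissue macrophage list, GZMB and KLRD1 of the T and natural killer cell list, and DLA-79 of the class I list. IFGGB1, IFGGD3, CXCL10 and GIMAP4 were in none of the lists, and DLA88, listed under class I, was not counted there because 2 genes share its symbol. Of the 13552 genes, 25 (0.184%) were at least 2-fold higher in all 4 Chinese Field Dog libraries and 1 (0.00738%) was at least 2-fold lower. Counting any size of difference, the balance turned: 1127 genes (8.32%) were higher in all 4 pairs and 1628 (12%) were lower. The median of the mean log2 ratio over all genes was -0.02. By limma, with the 4 pair ratios as replicates and Benjamini-Hochberg adjustment over all genes tested, 5 genes (0.0369%) passed an adjusted p of 0.05. All 5 were higher in the Chinese Field Dog: MARCO, GZMB, 1 copy of DLA88 and 2 genes with no symbol. Leaving out 1 pair gave 0 calls without the stressed adrenal pair or the unexposed pituitary pair, 2 without the unexposed adrenal pair and 12 without the stressed pituitary pair, and DESeq2 on the recovered reads called 289. At an unadjusted p under 0.05, 597 genes (4.41%) were higher and 751 (5.54%) were lower.

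**Figure D1:**
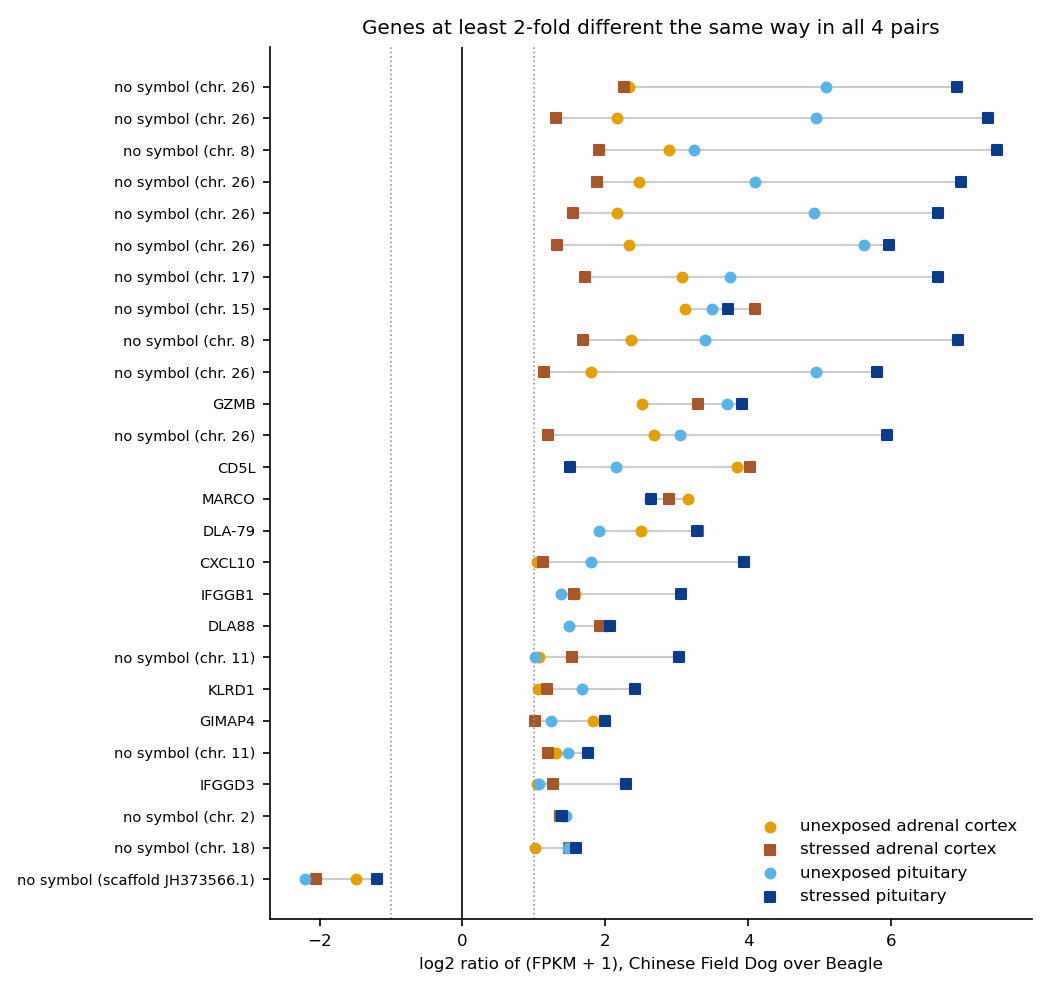
Log2 ratio of (FPKM + 1), Chinese Field Dog over Beagle, for the 26 genes at least 2-fold different the same way in all 4 pairs; each point is 1 pair of libraries, circles are unexposed and squares stressed, and dotted lines mark 2-fold. In 20 of the 25 genes higher in the Chinese Field Dog the largest of the 4 ratios is that of the stressed pituitary pair, and only 1 gene lies on the lower side.

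MARCO, a scavenger receptor of macrophages that binds bacteria (chromosome 19, positions 30996185 to 31034536), was near the limit of detection in every Beagle library. It had 9.74, 7.76, 5.41 and 5.74 FPKM in Chinese Field Dogs and 0.197, 0.177, 0.0381 and 0.0812 FPKM in Beagles, from 142 to 273 reads per Chinese Field Dog library and 1 to 4 reads per Beagle library. The breeds did not overlap, but MARCO was chosen for being at least 2-fold higher in every pair. The same holds wherever a lack of overlap is given for another of the 25 higher genes. It passed the read minimum only through the Chinese Field Dog libraries, as did GZMB and KLRD1 below. For these genes the read minimum was therefore not independent of the breed difference. With so few Beagle reads, the log2 ratio of reads in the unexposed adrenal pair was 5.77 with a 95% exact counting interval of 4.40 to 7.66, and in the unexposed pituitary pair 7.15 with an interval of 4.65 to 12.5. These intervals cover counting error only. The mean log2 ratio on the FPKM + 1 scale was 2.83 ± 0.15 (SE, 4 pairs; limma adjusted p = 0.0107).

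CD5L, a protein that tissue macrophages secrete (chromosome 7, positions 40515317 to 40526634), followed MARCO in direction and was the gene with a symbol whose ratio was largest in adrenal cortex. It had 21.3, 20.6, 3.76 and 2.76 FPKM in Chinese Field Dogs and 0.549, 0.325, 0.0678 and 0.322 FPKM in Beagles. Its ratio was 3.85 and 4.02 in the adrenal pairs and 2.16 and 1.51 in the pituitary pairs. The mean of 2.88 ± 0.46 (SE, 4 pairs) did not pass limma's adjustment (adjusted p = 0.174). No Chinese Field Dog library came below any Beagle library, but CD5L too was chosen for being at least 2-fold higher in every pair.

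GZMB, granzyme B, a protease that cytotoxic lymphocytes release into target cells (chromosome 8, positions 4508716 to 4511843), had 20.49, 16.4, 26.9 and 30.7 FPKM in Chinese Field Dogs and 2.75, 0.772, 1.13 and 1.10 FPKM in Beagles. Reads were 202 to 435 per Chinese Field Dog library and 11 to 35 per Beagle library. All 4 Chinese Field Dog libraries lay well above all 4 Beagle libraries. Over both glands GZMB ranged from 16.4 to 30.7 FPKM in Chinese Field Dogs and, from few reads, from 0.772 to 2.75 FPKM in Beagles. The mean log2 ratio was 3.36 ± 0.24 (SE, 4 pairs; limma adjusted p = 0.0276); edgeR's quasi-likelihood test on the recovered reads gave an adjusted p of 0.0531. KLRD1, a receptor subunit on natural killer cells (chromosome 27, positions 35699174 to 35707408), was lower in level and pointed the same way. It had 1.34, 1.44, 3.15 and 5.12 FPKM in Chinese Field Dogs and 0.126, 0.0680, 0.296 and 0.142 FPKM in Beagles, from 3 to 5 reads per Beagle library. Its mean ratio was 1.59 ± 0.26 (SE, 4 pairs; limma adjusted p = 0.174).

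**Figure D2:**
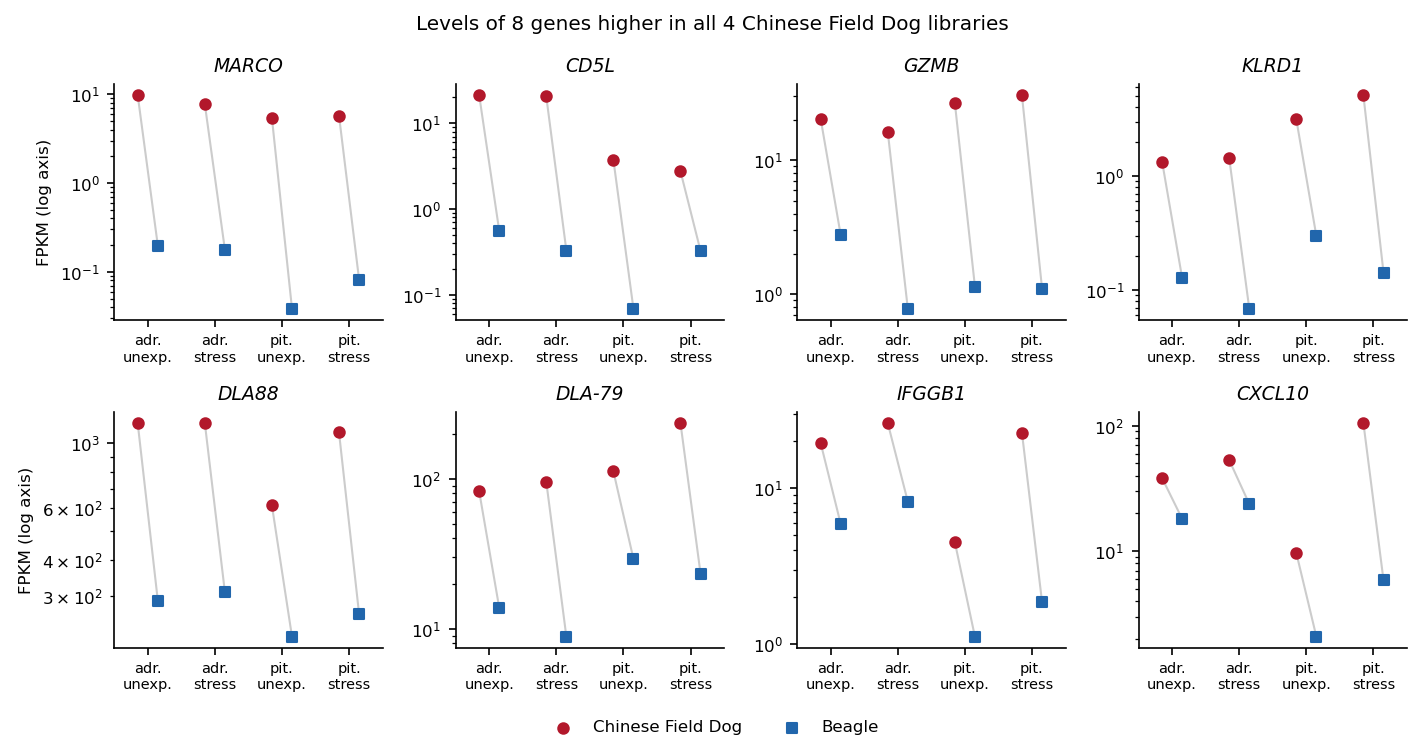
FPKM on a log axis of 8 genes higher in all 4 Chinese Field Dog libraries; red circles are Chinese Field Dog and blue squares Beagle, 1 library a point, joined within a pair. MARCO lies between 5.41 and 9.74 FPKM in Chinese Field Dogs and at or below 0.197 FPKM in Beagles, while CD5L and IFGGB1 also differ between glands within a breed.

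The class I genes were among the most abundant of those described. The gene annotated as DLA88 on chromosome 12 at positions 892227 to 895691 encodes a classical class I heavy chain and had 1171, 1174, 613 and 1090 FPKM in Chinese Field Dogs against 290, 309, 218 and 260 FPKM in Beagles. The lowest Chinese Field Dog library was above the highest Beagle library, and its mean log2 ratio was 1.87 ± 0.13 (SE, 4 pairs; limma adjusted p = 0.0253). The symbol is shared by a second locus, DLA88 ENSCAFG00000000492, which had log2 ratios of 1.10, 1.34, 0.62 and 1.31 and a limma adjusted p of 0.120. DLA-79, a nonclassical class I gene that lies apart from the others (chromosome 18, positions 41142495 to 41146106), had 82.4, 95.4, 112 and 236 FPKM in Chinese Field Dogs and 13.7, 8.82, 29.1 and 23.2 FPKM in Beagles. The ranges of the breeds were far apart, and the mean ratio was 2.75 ± 0.25 (SE, 4 pairs; limma adjusted p = 0.0709). It was also the only 1 of the genes tested with a p of at most 0.05 in all 4 of the authors' deposited tables of breed comparisons, where its p was 0.00985, 0.00415, 0.0246 and 0.00055. Reads of class I alleles can be shared among near-identical copies, and reads from alleles unlike the reference may align less often; the part of either in these values was not tested.

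Of 20 symbols listed for class I antigen presentation, some of them spelling variants, 14 were tested and 10 were higher in all 4 pairs, with none lower, against 8.32% and 12% of all genes. The same 10 had an unadjusted limma p under 0.05, and the median of the mean ratios of the 14 was 0.74. DLA-79 was the only member at least 2-fold in all 4 pairs. B2M, the light chain of every class I molecule, had 5298, 4635, 2416 and 3528 FPKM in Chinese Field Dogs and 2230, 2245, 1240 and 1604 FPKM in Beagles. The lowest Chinese Field Dog library, unexposed pituitary, lay just above the highest Beagle library, stressed adrenal cortex. Its mean ratio of 1.10 ± 0.12 missed the adjusted threshold (SE, 4 pairs; limma adjusted p = 0.0973). DLA-64, a nonclassical heavy chain, averaged 0.93 ± 0.10 and PSMB8, an immunoproteasome subunit, 0.95 ± 0.09 (SE, 4 pairs; limma adjusted p = 0.0973 and 0.0761). TAP1, which moves peptides into the endoplasmic reticulum, averaged 0.83 ± 0.10 (SE, 4 pairs; limma adjusted p = 0.108). Of the class II list, whose proteins present antigen on macrophages, dendritic cells and B cells, 5 genes were tested and 3 were higher in all 4 pairs. Its median ratio was 0.42, and CTSS, a protease that trims the class II invariant chain, had the largest at 0.75 ± 0.13 (SE, 4 pairs; limma adjusted p = 0.205).

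A neighbouring set on chromosome 11, between positions 509647 and 957886, held 4 of the 25 genes. Of these, IFGGB1 and the gene the tables describe as IFGGC1 are interferon-gamma-inducible GTPases, and IFGGD3 and an ID with no symbol lay beside them. IFGGB1 (positions 571607 to 572930) had 19.6, 26.3, 4.51 and 22.8 FPKM in Chinese Field Dogs and 5.88, 8.19, 1.11 and 1.86 FPKM in Beagles. The breeds overlapped across glands, since unexposed Chinese Field Dog pituitary was below both Beagle adrenal libraries, but not within a gland. The mean ratio was 1.90 ± 0.29 for IFGGB1, 1.42 ± 0.23 for IFGGD3 and 1.66 ± 0.34 for IFGGC1 (SE, 4 pairs; limma adjusted p = 0.164, 0.174 and 0.280). These genes are near-duplicates of each other, and how reads were divided among them is not given in the sources used here.

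CXCL10, a chemokine induced by interferon that draws T cells (chromosome 32, positions 597633 to 600003), had 38.2, 53.2, 9.71 and 105 FPKM in Chinese Field Dogs and 18.1, 23.8, 2.08 and 5.89 FPKM in Beagles. Its ratio was 1.04 and 1.13 in the adrenal pairs, 1.80 in the unexposed pituitary pair and 3.94 in the stressed pituitary pair, the library with forebrain genes. The mean was 1.98 ± 0.49 (SE, 4 pairs; limma adjusted p = 0.320). Of 24 interferon-response genes tested, 17 were higher in all 4 pairs, where 8.32% of all genes were, and none was lower. An unadjusted limma p under 0.05 was found for 19, all higher, against 4.41% of all genes. Their median ratio was 0.49, with medians of 0.49, 0.32, 0.65 and 0.43 in the 4 pairs, above 0 in each. No member of the list passed the adjusted threshold.

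GIMAP4, a GTPase of lymphocytes, had 17.1, 7.76, 5.06 and 10.6 FPKM in Chinese Field Dogs and 4.06, 3.31, 1.56 and 1.89 FPKM in Beagles, with a mean ratio of 1.53 ± 0.19 (SE, 4 pairs; limma adjusted p = 0.120). The tables give 11 genes the same locus (chromosome 16, positions 14642055 to 14852147), so its reads may be shared with neighbours, as may those of the other 5 of the 25 genes that share a locus.

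Genes with no symbol made up 15 of the 25. Of these, ENSCAFG00000007865 (chromosome 15, positions 48056753 to 48057605) had 17.3, 23.9, 18.0 and 24.2 FPKM in Chinese Field Dogs and 1.10, 0.447, 0.680 and 0.909 FPKM in Beagles. All 4 Chinese Field Dog libraries lay far above all 4 Beagle libraries, but this gene too was chosen for being at least 2-fold higher in every pair. Its mean ratio was 3.61 ± 0.18 (SE, 4 pairs, limma adjusted p = 0.0107). ENSCAFG00000023349 (chromosome 2, positions 23235642 to 23253489) had 91.0, 112, 9.86 and 16.7 FPKM in Chinese Field Dogs and 34.0, 42.8, 2.96 and 5.74 FPKM in Beagles. Its level differed far more between glands than between breeds, yet its 4 ratios, 1.39, 1.36, 1.46 and 1.39, were the closest to each other of the 5 genes called, with a mean of 1.40 ± 0.08 (SE, 4 pairs; limma adjusted p = 0.0107).

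Another 10 of the genes with no symbol lay on chromosome 26 (7 genes, in groups at 25050204 to 26020315 and 27605066 to 27632004), chromosome 8 (2 genes, at 72906320 to 73751650) and chromosome 17 (1 gene), and varied alike from library to library. Their reads summed to 5755, 1068, 14315 and 60508 in Chinese Field Dogs and to 635, 288, 1176 and 428 in Beagles. The excess was therefore smallest in stressed adrenal cortex and largest in stressed pituitary, with median ratios of 2.35, 1.62, 4.51 and 6.79. In Chinese Field Dogs, stressed over unexposed, all 10 were lower in adrenal cortex (median log2 ratio -1.83) and all 10 were higher in pituitary (median 1.67). In Beagles all 10 were lower in stressed adrenal cortex (median -1.04) and 8 of 10 were lower in stressed pituitary (median -0.59). The lowest of the 10 had only 2 to 4 reads in each Beagle library. Each group was 1 library and the 10 genes varied together, so they are not replicates of exposure, and no share of all genes is given for these counts. Stressed Chinese Field Dog pituitary was also the library with forebrain genes. Between breeds none of the 10 passed limma's adjustment (adjusted p from 0.249 to 0.320). IGJ, the joining chain that plasma cells make for secreted antibodies, stood at 20.8, 12.4, 45.5 and 98.7 FPKM in Chinese Field Dogs and 12.9, 11.9, 20.03 and 20.2 FPKM in Beagles. Its order over the libraries was the same as that of the 10 genes in Chinese Field Dogs, and of the 5 B and plasma cell genes tested it was the only 1 higher in all 4 pairs. The part of plasma cell content in these values was not tested.

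The single gene at least 2-fold lower in all 4 pairs, ENSCAFG00000015261 on an unplaced scaffold, had 1.25, 1.11, 2.18 and 4.46 FPKM in Chinese Field Dogs and 5.29, 7.76, 13.7 and 11.4 FPKM in Beagles (mean ratio -1.73 ± 0.20, SE, 4 pairs; limma adjusted p = 0.0973). The threshold of 2-fold was a choice. Just inside it, GIMAP4 had a smallest ratio of 1.02, and just outside it RAC2, a GTPase of blood cells, had 0.99 and B2M 0.96. Of the 25 genes higher in the Chinese Field Dog, 14 passed the read minimum only through the Chinese Field Dog libraries and had to differ, as did 403 of all genes tested. MARCO, GZMB and KLRD1 were among the 14.

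The glands were sequenced as separate libraries, so a gene chosen in 1 gland can be read in the other. Of 50 genes at least 2-fold higher in both Chinese Field Dog adrenal cortex pairs (0.369% of genes), 45 (90%) were higher in both pituitary pairs, against 24.0% of all genes, and 25 were at least 2-fold higher there, against 0.738%. Of 100 genes at least 2-fold higher in both pituitary pairs, 79 (79%) were higher in both adrenal cortex pairs, against 25.4% of all genes. Of 15 at least 2-fold lower in both adrenal cortex pairs, 5 were lower in both pituitary pairs (33.3%, against 31.6% of all genes). Of 13 chosen as lower in pituitary, 8 were lower in both adrenal cortex pairs (61.5%, against 33.2%). Without the stressed pituitary pair, 112 of 177 genes (63.3%) at least 2-fold higher in unexposed pituitary were higher in both adrenal cortex pairs. Without that pair, 45 of the 50 genes chosen in adrenal cortex were higher in unexposed pituitary, where 47% of all genes were. The read minimum itself favours genes high in 1 breed in both glands. Among genes that passed it in each breed, a restriction added after seeing the data, 29 of 31 genes chosen in adrenal cortex were higher in both pituitary pairs (93.5%, against 22.9% of those genes), with 11 at least 2-fold. In the same way, 39 of 52 chosen in pituitary were higher in both adrenal cortex pairs (75%, against 25.1%). These shares are descriptions with no test. A direct limma test of whether the breed ratio differed between pituitary and adrenal cortex called 0 genes (0.0%) at an adjusted p of 0.05, with 723 at an unadjusted p under 0.05, and edgeR called 0 with 836; this test has 2 residual degrees of freedom and does not show that the glands were alike.

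**Figure D3:**
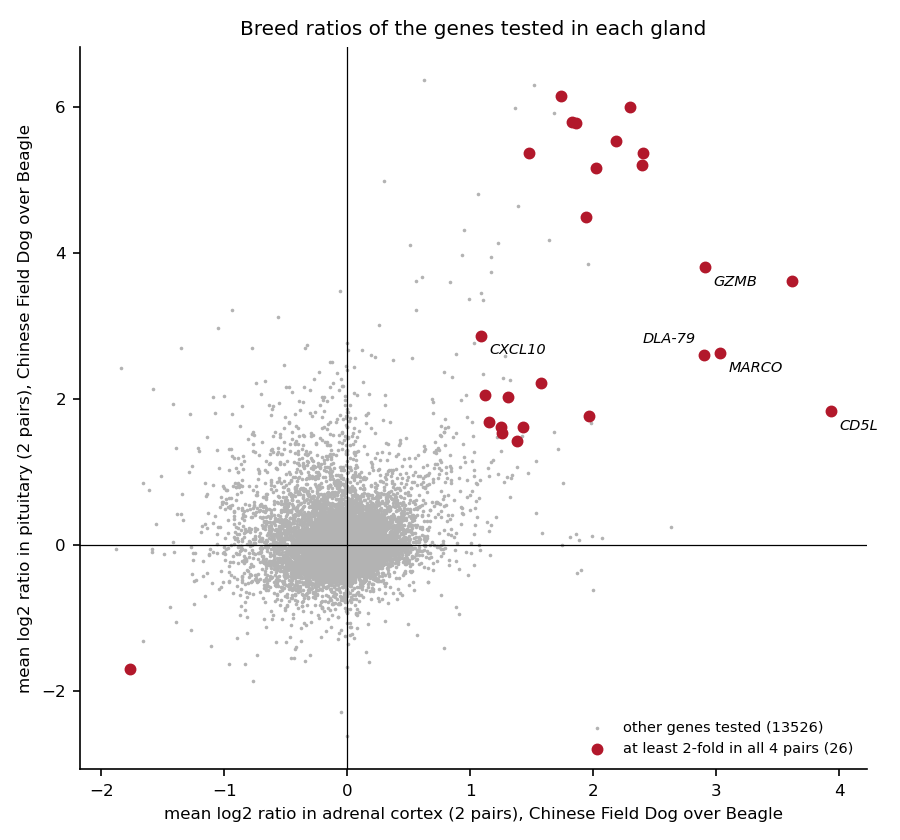
Mean log2 ratio of (FPKM + 1), Chinese Field Dog over Beagle, in the 2 adrenal cortex pairs (x axis) and the 2 pituitary pairs (y axis), 1 point a gene. The 26 genes at least 2-fold in all 4 pairs are red: 25 lie at the upper right and 1 at the lower left, and CD5L lies farthest to the right.

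Of 16 tissue macrophage markers tested, 12 were higher in all 4 pairs, against 8.32% of all genes, and none was lower. Of the 16, 11 were higher with an unadjusted limma p under 0.05, against 4.41% of all genes, and their median ratio was 0.57. C1QC, a chain of the complement protein that macrophages make, had 316, 338, 109 and 142 FPKM in Chinese Field Dogs and 170, 208, 35.8 and 45.4 FPKM in Beagles (mean ratio 1.20 ± 0.18, SE, 4 pairs; limma adjusted p = 0.164). Both breeds had more in adrenal cortex than in pituitary, and within each gland the breeds did not overlap. TIMD4, a receptor for dying cells on resident macrophages, had a mean ratio of 1.15 ± 0.12 (SE, 4 pairs; limma adjusted p = 0.0847). CD68, a lysosomal protein of macrophages in general, had ratios of 0.11 and 0.12 in the adrenal pairs and 0.42 and 0.98 in the pituitary pairs. The summed level of the list was 502 to 1233 FPKM in Chinese Field Dogs and 253 to 814 FPKM in Beagles, and none of its members was at 0 in any library. In bulk tissue, more cells of a type and more RNA per cell cannot be told apart.

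Of 12 T and natural killer cell markers tested, 11 were higher in all 4 pairs, against 8.32% of all genes, and none was lower. The same 11 had an unadjusted limma p under 0.05, against 4.41% of all genes, and the median ratio was 1.13. Only 12 of the 20 genes matched were tested. At least GZMB and KLRD1 passed the read minimum only through the Chinese Field Dog libraries, so that minimum favoured the higher direction in this list. The B and plasma cell list had 1 of 5 higher and a median ratio of 0.09. The T and natural killer cell medians in the 4 pairs were 0.58, 0.92, 0.95 and 2.03, highest in the stressed pituitary pair. GZMA, granzyme A, had 3.49, 6.11, 2.94 and 10.5 FPKM in Chinese Field Dogs and 1.68, 1.06, 0.418 and 0.336 FPKM in Beagles. CD3E, a chain of the T cell receptor complex, had 2.58, 2.94, 4.77 and 12.8 FPKM in Chinese Field Dogs and 1.32, 0.318, 0.948 and 0.584 FPKM in Beagles. Neither overlapped between the breeds, but both were named after their values were seen. Neither passed the adjustment (limma adjusted p = 0.281 and 0.300). The list summed to 59.4 to 130 FPKM in Chinese Field Dogs and to 14.4 to 38.6 FPKM in Beagles. Of 9 neutrophil genes matched only 2 were tested, too few to set against the other lists. CSF3R was of mixed sign, with a mean ratio of 0.10, and LTF, lactoferrin, was lower in all 4 pairs.

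**Figure D4:**
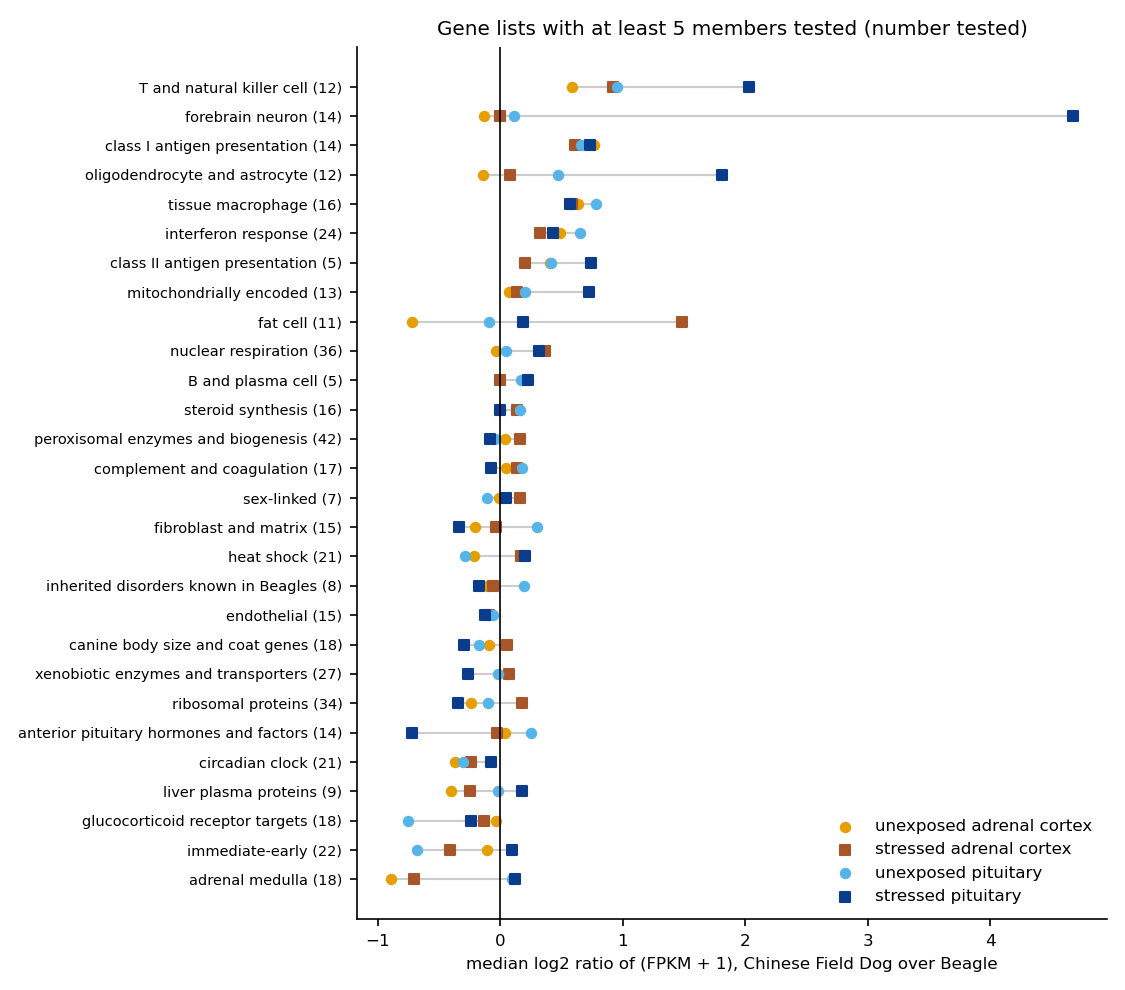
Median log2 ratio of (FPKM + 1), Chinese Field Dog over Beagle, for the gene lists with at least 5 members tested, with the number tested in brackets; each point is 1 pair. The T and natural killer cell, class I, macrophage, interferon, class II and mitochondrially encoded lists lie above 0 in all 4 pairs, and the forebrain neuron list reaches 4.67 in the stressed pituitary pair alone.

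Without the stressed pituitary pair, class I 11, macrophage 12, T and natural killer cell 11, interferon 18 and class II 3 members were higher in the other 3 pairs. Of all genes, 15.5% were higher and 21.0% were lower in those pairs. A gene of 1 sign in all 4 pairs keeps it in any 3, so these counts could not fall. Within the lower direction, no gene with a symbol reached 2-fold in all 4 pairs, and 14 genes had ratios of at least 0.5 in size in all 4, against 104 in the higher direction. The genes named here were those with a symbol and the largest smallest ratio, chosen after their values were seen. TXNIP, an inhibitor of thioredoxin and of glucose uptake, had 172, 120, 91.2 and 47.3 FPKM in Chinese Field Dogs and 325, 299, 208 and 144 FPKM in Beagles. Each Chinese Field Dog library was below its Beagle partner, while the unexposed Chinese Field Dog adrenal cortex lay above the stressed Beagle pituitary. The mean ratio was -1.25 ± 0.12 (SE, 4 pairs; limma adjusted p = 0.0827).

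CHODL, a membrane lectin, had 2.98, 2.65, 1.93 and 1.81 FPKM in Chinese Field Dogs and 10.5, 8.28, 4.29 and 4.09 FPKM in Beagles (mean ratio -1.15 ± 0.16, SE, 4 pairs; limma adjusted p = 0.138). No Chinese Field Dog library reached the lowest Beagle value. BTG2, an antiproliferative gene of the immediate-early group, had 50.3, 34.1, 8.13 and 4.33 FPKM in Chinese Field Dogs and 78.6, 71.0, 14.0 and 10.2 FPKM in Beagles (mean ratio -0.87 ± 0.11, SE, 4 pairs; limma adjusted p = 0.120). VPS13D, a lipid transfer protein, averaged -0.85 ± 0.11 (SE, 4 pairs; limma adjusted p = 0.128). CCDC172 had a mean ratio of -1.22, AVIL, an actin-binding protein, of -1.03, MEST, an imprinted gene, of -0.74, and MEIOB, a meiosis gene, of -0.57. In the tables CCDC172 shares its locus with 1 other gene and AVIL's locus holds 15 genes.

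**Figure D5:**
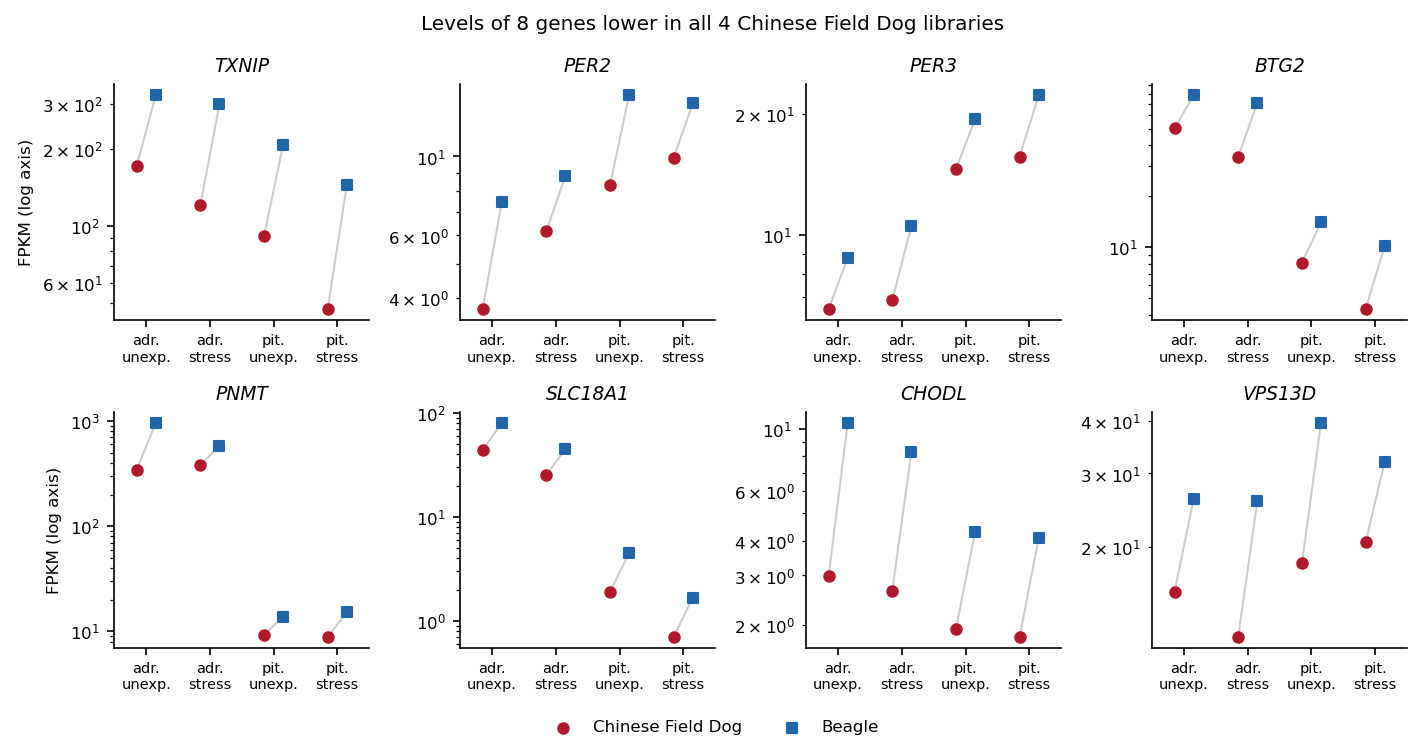
FPKM on a log axis of 8 genes lower in all 4 Chinese Field Dog libraries; red circles are Chinese Field Dog and blue squares Beagle, 1 library a point, joined within a pair. TXNIP lies between 47.3 and 172 FPKM in Chinese Field Dogs and between 144 and 325 FPKM in Beagles.

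Of the stress-axis lists, 7 of 18 glucocorticoid receptor targets were lower in all 4 pairs, against 12% of all genes, and none was higher, with a median ratio of -0.27 and 5 at an unadjusted limma p under 0.05. The medians in the 4 pairs were -0.04, -0.14, -0.76 and -0.24, largest in the unexposed pituitary pair. TSC22D3, a glucocorticoid-induced leucine zipper protein, had 80.1, 83.1, 19.3 and 19.8 FPKM in Chinese Field Dogs and 119, 85.4, 32.1 and 22.1 FPKM in Beagles, nearly equal in the stressed pairs. Immediate-early genes, which switch on within minutes of a signal, had 5 of 22 lower in all 4 pairs, against 12% of all genes, and 1 higher. Without the stressed pituitary pair 12 of 22 were lower, against 21.0% of all genes. The list had a median ratio of -0.34 and pair medians of -0.11, -0.41, -0.68 and 0.09. Their summed level was 476 to 1335 FPKM in Chinese Field Dogs and 508 to 1820 FPKM in Beagles. How long after death the glands were taken is not given in the sources used here, and its part in these genes was not tested.

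The circadian clock list had 7 of 21 members lower in all 4 pairs, against 12% of all genes, and none higher, with a median ratio of -0.19. Without the stressed pituitary pair 10 were lower, against 21.0% of all genes. PER2, a repressor of the clock, had 3.73, 6.16, 8.29 and 9.91 FPKM in Chinese Field Dogs and 7.43, 8.82, 14.9 and 14.1 FPKM in Beagles (mean ratio -0.63 ± 0.11, SE, 4 pairs; limma adjusted p = 0.207). PER3 had a mean ratio of -0.45 ± 0.09 and PER1 of -0.64 ± 0.20 (SE, 4 pairs; limma adjusted p = 0.246 and 0.408). PER1 had ratios of -1.01 and -1.16 in the unexposed pairs and -0.32 and -0.08 in the stressed pairs. The hour of sampling is not given in the sources used here and cannot be told apart from breed.

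Of 18 adrenal medulla genes, 5 were lower in all 4 pairs, against 12% of all genes, and 8 without the stressed pituitary pair, against 21.0%. An unadjusted limma p under 0.05 was found for 4 of the 18, all lower, and none passed the adjustment. The median ratios were -0.89 and -0.71 in the adrenal pairs and 0.09 and 0.12 in the pituitary pairs. PNMT, which makes adrenaline, had 345, 382, 9.32 and 8.87 FPKM in Chinese Field Dogs and 962, 584, 13.7 and 15.1 FPKM in Beagles. SLC18A1, which loads catecholamines into vesicles, had 44.1, 25.3, 1.89 and 0.7003 FPKM in Chinese Field Dogs and 80.4, 45.1, 4.49 and 1.67 FPKM in Beagles. The summed medulla level in adrenal cortex was 5656 and 5040 FPKM in Chinese Field Dogs and 9569 and 7944 FPKM in Beagles, and the share of medulla in each dissection was not tested.

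The lists of the glands' own functions were each low in the other gland. Counts of 1 sign in all 4 pairs therefore cannot show whether the breeds were alike. In unexposed Chinese Field Dogs the steroid synthesis list summed to 20309.5 FPKM in adrenal cortex and 320 FPKM in pituitary. The pituitary hormone and factor list summed to 36.5 and 78997.5 FPKM. MC2R, a steroid list member, was at 0 in all 4 pituitary libraries and could not be of 1 sign. Of 16 steroid synthesis genes none was of 1 sign in all 4 pairs, and their median ratio was 0.07. Their mean ratios ran from -0.28 (HSD11B1) to 0.74 (CYP17A1). Of 14 pituitary hormone and factor genes, FSHB, the beta chain of follicle-stimulating hormone, was higher in all 4 and TBX19, the corticotroph factor, lower in all 4. The mean ratios of the 14 ran from -0.99 (TSHB) to 0.97 (FSHB). FSHB had 882 and 826 FPKM in Chinese Field Dog pituitary and 338 and 280 FPKM in Beagle pituitary, unexposed first, and is listed at 0 in both Beagle adrenal libraries and at 0.475 and 0.311 FPKM in the Chinese Field Dog adrenal libraries, unexposed first. GH1, growth hormone, was left out with RRBP1, because the authors' table lists each at 0 in unexposed Beagle pituitary with a status mark of a failed estimate.

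The counts of the remaining lists stand against 8.32% of all genes higher and 12% lower in all 4 pairs. Of 42 peroxisomal genes, 4 were higher and 2 were lower. HAO2, a peroxisomal oxidase, was the only peroxisomal gene with an unadjusted limma p under 0.05, and its limma adjusted p was 0.445. HAO2 had 387 and 267 FPKM in Chinese Field Dog adrenal cortex and 56.8 and 46.0 FPKM in Beagle adrenal cortex. All 4 pituitary libraries were under 0.5 FPKM. The ratio was 2.75 and 2.51 in the adrenal pairs and 0.25 and 0.24 in the pituitary pairs. Of 8 genes from a list of inherited dog disorders, C3, complement component 3, was higher in all 4 Chinese Field Dog libraries (mean ratio 0.75 ± 0.18, SE, 4 pairs; limma adjusted p = 0.317) and none was lower in all 4. The list was headed as Beagle disorders, but the labels tie none of its genes to either breed. Of 18 genes tied to canine body size and coat, 3 were lower and none was higher, with IGF1R, the receptor for insulin-like growth factor, at -0.25 ± 0.09 (SE, 4 pairs; limma adjusted p = 0.451). Of 27 xenobiotic genes, 1 was higher and 5 were lower, and GSTT1, a glutathione transferase, had 22.03, 14.5, 16.8 and 8.49 FPKM in Chinese Field Dogs and 30.9, 36.7, 20.4 and 19.6 FPKM in Beagles. Of 13 mitochondrially encoded genes 7, and of 36 nuclear respiration genes 8, were higher in all 4 pairs, with median ratios of 0.28 and 0.16. Heat shock genes split, with 2 of 21 higher and 3 lower, and ribosomal protein genes had 0 of 34 higher and 2 lower. Endothelial markers had 4 of 15 lower and 0 higher in all 4 pairs, with a median of -0.10. Complement and coagulation genes had 5 of 17 higher and 1 lower, fibroblast genes 1 of 15 higher, and none of the 11 fat cell genes was of 1 sign. Of the 7 sex-linked genes 1 was lower in all 4, as was 1 each of 9 liver plasma protein, 2 erythroid and 12 glial genes, while 1 of 14 forebrain neuron genes was higher. The 1 starch digestion gene tested was of mixed sign. On the X chromosome, 27 of 486 genes tested were higher (5.56%) and 76 lower (15.6%) in all 4 pairs.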

How the data were processed

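RNA-seq libraries of pituitary and adrenal cortex from 2 dog breeds were compared as 4 pairs. Reads were aligned with TopHat to CanFam3.1, per the submitters' processing notes. The 4 deposited tables that compare breeds give, per the file headers, counts, FPKM and a p-value per gene; the other 4 tables, which compare exposures, were not used. The authors scaled the deposited counts between libraries, so the count columns hold a scaled count signal. Dividing by the value of 1 read gave whole reads within 0.02 for 99.1 to 99.3% of values; in stressed Beagle adrenal cortex and stressed Chinese Field Dog pituitary the value of 1 read was close to 1 and the reads are estimates. FPKM were deposited by the authors and used as given. The authors' deposited p-values compare single libraries and were used for 1 gene.

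GH1 and RRBP1, marked as failed by the authors' table, were left out after the data were seen. limma 3.58.1 (R 4.3.3) tested the 4 log2(FPKM + 1) ratios against 0 with a variance trend, with 3 residual degrees of freedom, and the pituitary minus adrenal difference with 2; p-values were two-sided and adjusted by Benjamini and Hochberg. The pairing by gland and exposure comes from the labels, and same-numbered replicates do not exist. edgeR 4.0.16 and DESeq2 1.42.0 on recovered reads, another pseudocount, filter and centring, and leaving out each pair were alternatives. The fits were tested on simulated data. Counting intervals are exact Clopper-Pearson intervals at 95%. Genes named were those at least 2-fold in all 4 pairs or called, with symbols used once, list members meeting either rule, and at most 2 IDs with no symbol in each direction; the other genes named were chosen after their values were seen. DLA88, whose symbol 2 IDs share, is named because it was called. The genes described and all 31 lists were chosen with earlier results of these data known. List counts are given with the share of all genes and were not tested. Symbols came from the tables, where 16080 of 24580 genes have a symbol used once. Loci are the tables' spans on CanFam3.1. One gene is not reported here.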

Additional observations from a re-analysis of the deposited data

Results flagged for a closer look

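Among lists with at least 5 genes tested, 8 had a breed difference of opposite sign by gland or exposure: both pairs of 1 kind had a median log2 ratio (Chinese Field Dog over Beagle) above 0 and both of the other kind below 0. These differences were not tested. By gland, pituitary minus adrenal cortex, the median ratio differed by -0.20 for 27 xenobiotic genes, by -0.16 for 42 peroxisomal genes, by 2.46 for 14 forebrain neuron genes and by 0.91 for 18 adrenal medulla genes. By exposure, stressed minus unexposed, it differed by -0.52 for 14 pituitary hormone and factor genes, by 0.44 for 21 heat shock genes, by 0.16 for 7 sex-linked genes and by 1.24 for 11 fat cell genes. The forebrain value rests on 1 library, the stressed Chinese Field Dog pituitary, whose pair had a median of 4.67 against -0.13, -0.0019 and 0.11 in the other pairs. The fat cell medians were -0.72 and 1.48 in unexposed and stressed adrenal cortex and -0.10 and 0.19 in pituitary.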

How the results depend on the processing

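The 5 genes called became 3 with a minimum mean of 1 FPKM, 0 with no filter on low values (1710 at an unadjusted p under 0.05) and 289 with DESeq2 (202 higher, 87 lower). With the replicate block, which is the pairing by gland and exposure, edgeR called 4; with no replicate block limma called 16 (13 higher, 3 lower). edgeR without the pairs whose reads are estimates, chosen after seeing the data, called 0 (1266 unadjusted). Leaving out 1 pair gave 0 to 12 calls: 0 without the stressed adrenal pair or the unexposed pituitary pair, 2 without the unexposed adrenal pair and 12 without the stressed pituitary pair. MARCO kept its call in 11 of 15 alternatives, DLA88 in 10, GZMB in 9, ENSCAFG00000007865 in 12 and ENSCAFG00000023349 in 10. Without the stressed pituitary pair the 12 genes called, 11 higher and 1 lower, included DLA-79, IFGGB1 and IFGGD3, at limma adjusted p = 0.0462, 0.0294 and 0.0462. They also included higher genes with no symbol and the lower ENSCAFG00000015261, at limma adjusted p = 0.0409. The difference between glands called 5 genes with a minimum of 1 FPKM and 5 with no filter, and 0 otherwise. Genes at least 2-fold higher in all 4 pairs numbered 55 with a pseudocount of 0.1 and 26 to 51 with 1 pair left out, 51 without the stressed adrenal pair; those lower numbered 5 with that pseudocount, 4 with a minimum of 1 FPKM, 4 with no filter and 2 to 4 with 1 pair left out. The share of genes chosen in pituitary that were higher in adrenal cortex was 63.3% without the stressed pituitary pair and 87.1% at 4-fold, and that of genes chosen in adrenal cortex was 100% at 4-fold (7 of 7). With the read minimum required in both breeds, added after seeing the data, the shares were 75% and 93.5%. Of 539 values of 36 named genes under these alternatives, 476 kept direction and side of the threshold, 23 lost a call, 40 gained one and 0 changed direction. A gene chosen for 1 sign in all 4 pairs cannot change direction when a pair is left out. Values that were not called and stayed so count as kept, so the tally is no measure of robustness. The cause of the changes in calls was not tested. With 1 library per group, dog and group cannot be told apart.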

Other observations

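HBA, an alpha globin gene named after its values were seen, had 20.4, 37.2, 22.6 and 33.3 FPKM in Chinese Field Dogs and 72.0, 41.6, 85.6 and 89.8 FPKM in Beagles (unexposed and stressed adrenal cortex, then unexposed and stressed pituitary), lower in all 4 Chinese Field Dog libraries. Its mean log2 ratio was -1.30 ± 0.29 (SE, 4 pairs; limma adjusted p = 0.300), and within each gland the breeds did not overlap. The blood left in each gland was not measured.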
